A study of Homo sapiens with 29 samples.

Results

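The lowest dose of N-OH-PhIP in the series, 0.1 nM, was compared with DMSO in BEAS-2B, a line of human bronchial epithelium that was made immortal with a hybrid of adenovirus and SV40. N-OH-PhIP is the N-hydroxy metabolite of PhIP, a heterocyclic amine formed when meat is cooked and when tobacco burns. The members were chosen by title: 3 arrays at 0.1 nM and 3 DMSO arrays, 6 of the 29 arrays in all. Cells of both groups carried 1% DMSO for 24 h, and the labels call the cultures triplicate. For comparison the report also uses the 2 arrays at 0.5 nM, the 3 at 1 nM and the 3 at 10 nM, which were exposed in the same way. The labels' design text gives a lowest dose above 0.1 nM, and the sample titles were followed here. Per the design text, the study asked for the dose below which no transcriptional effect is seen.

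RNA was read on an Affymetrix 3′ array, where a probe set is a group of probes for one transcript and its intensity is a relative level. Intensities of different probe sets cannot be set against each other. Of 54613 non-control probe sets, the 27307 with a mean log2(intensity + 16) at or above the median were tested, for 12174 genes. A probe set is called at a Benjamini-Hochberg adjusted p under 0.05 in limma, and log2 changes are given with their SE. Arrays of a group correlated at 0.9905 to 0.997 for DMSO and at 0.9949 to 0.9968 for 0.1 nM, and DMSO replicate 1 stood a little apart from DMSO replicates 2 and 3 (0.9912 and 0.9905, against 0.997 between those). Of 30 epithelial keratin and adhesion genes, 28 lay at or above the level minimum of 37.4, with KRT18 at 4539 ± 262 in 0.1 nM cells and 4946 ± 285 in DMSO cells (SD, n = 3 each). The leukocyte gene PTPRC lay far under it, at 9.49 in 0.1 nM cells and 9.24 in DMSO cells. In such bulk samples fewer cells of a kind and less RNA per cell cannot be told apart. The number of arrays limits the precision.

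Immediate early genes are switched on within minutes of a growth or stress signal, without new protein synthesis. In epithelial cells EGF receptor signals pass through the kinase ERK to serum response factor and its partners on their promoters, and FOS, JUN and EGR proteins then drive a second wave of genes. DUSP phosphatases and Sprouty proteins, induced by the same signals, feed back on the kinases.

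At 0.1 nM, the genes that moved most were lower than in DMSO, and immediate early genes led them. Of 27307 probe sets, 163 were called (0.597%), 133 lower (0.487%) and 30 higher (0.110%). At 1.5-fold or more, 47 of these were lower and 4 higher. In 162 of the 163 the 3 arrays at 0.1 nM did not overlap with the 3 DMSO arrays, as was the case for 20.7% of all tested probe sets. The median change of all tested probe sets was -0.01. At an unadjusted p under 0.05 (limma) there were 3399. The called probe sets with 1 symbol named 103 genes, 83 lower and 20 higher. With each array centred on its median, 100 were lower and 46 higher, so that the lower share was 68.5%, against 81.6% in the values as deposited. Single arrays weighed on the count: it was 29 without DMSO replicate 2, 85 without DMSO replicate 3 and 717 without DMSO replicate 1. Without DMSO replicate 1 the split was near even, with 377 lower and 340 higher, while without any other single array of the groups most calls were lower. The count was 83, 64 and 63 without 0.1 nM replicates 1, 2 and 3. With 5 nM replicate 3 and 500 nM replicate 3 out of the fit, 2 arrays that stand apart from their groups, it was 475.

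**Figure D1:**
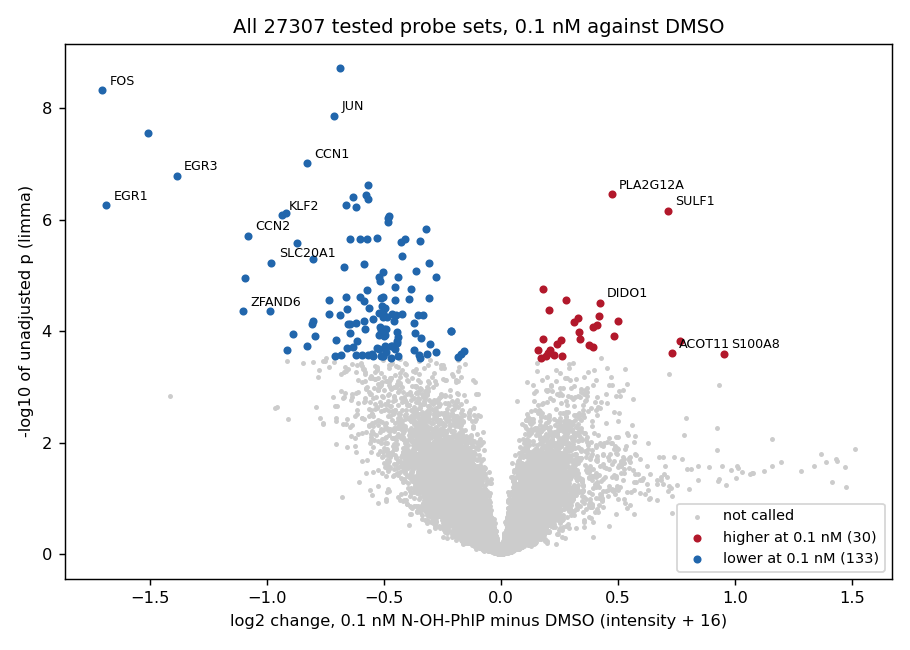
Change of each tested probe set at 0.1 nM against DMSO (x axis, log2 of intensity + 16) and the -log10 of its unadjusted p in limma (y axis). The 133 probe sets called lower (blue) reach -1.70 for FOS, while the 30 called higher (red) reach 0.95 for S100A8.

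The promoters of FOS, EGR1, JUN and TNFAIP3, which are among the genes that fell most, are shown because their control elements are textbook examples of signal-driven transcription. Each is the 150 bases before the start site, from RefSeq on GRCh38.p14, written 5′ to 3′ on the gene's strand. Capitals mark the motifs searched on both strands. They are TGACG, the core of a cyclic AMP response element, and TATAAA in FOS; the CArG box bound by serum response factor and TGACG in EGR1; TGACG in JUN; and a kappa B motif in TNFAIP3. A motif on the other strand is capitalised as it reads here.
FOS (chr14:75278678-75278827, plus strand): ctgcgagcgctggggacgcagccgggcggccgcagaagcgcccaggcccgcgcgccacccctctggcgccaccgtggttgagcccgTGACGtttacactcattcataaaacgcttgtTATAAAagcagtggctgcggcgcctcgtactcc
EGR1 (chr5:138465329-138465478, plus strand): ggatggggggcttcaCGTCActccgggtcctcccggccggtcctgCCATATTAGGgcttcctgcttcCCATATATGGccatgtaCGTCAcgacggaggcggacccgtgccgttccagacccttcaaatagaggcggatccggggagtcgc
JUN (chr1:58784048-58784197, minus strand): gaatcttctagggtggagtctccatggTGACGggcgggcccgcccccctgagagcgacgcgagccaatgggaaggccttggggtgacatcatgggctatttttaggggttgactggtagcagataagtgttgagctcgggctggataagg
TNFAIP3 (chr6:137867109-137867258, plus strand): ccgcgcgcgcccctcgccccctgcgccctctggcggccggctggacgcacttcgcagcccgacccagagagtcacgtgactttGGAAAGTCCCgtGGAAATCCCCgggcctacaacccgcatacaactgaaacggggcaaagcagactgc

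Counted from the start site, TGACG begins at -64 and TATAAA at -33 in FOS, and the CArG boxes of EGR1 begin at -105 and -83. The kappa B motifs of TNFAIP3 begin at -67 and -55. Of the 26 immediate early genes tested, 19 had a promoter in the table. TGACG lay in 11 of these (57.9%), FOS, FOSB, JUN, JUNB and DUSP1 among them, and in 15.4% of all 35116 promoter windows of that length. For every motif a gene counted if any of its windows held it. The share over all is per window, so the shares differ in unit. TATAAA lay in 5 (26.3%), against 6.71% of all windows, and the CArG box in 2 (10.5%), EGR1 and SRF, against 0.769%. The kappa B motif lay in 2 (10.5%), against 3.15%, and TGANTCA, one form of the AP-1 site, in 0, against 4.17%. Other forms of the AP-1 site, such as tgacatca in the JUN window, were not searched. These are matches of letters in a window, with no measure of binding.

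Of the 26 immediate early genes tested, 9 fell at 0.1 nM and 0 rose, where each gene is read by its probe set of highest mean. Over all 12174 genes read in that way, 0.337% fell and 0.0904% rose. The list had a median log2 change of -0.43, with 25 of 26 members below 0, and in 21 the arrays at 0.1 nM lay under every DMSO array, as did 13.0% of all tested probe sets. Counting any tested probe set of a gene, 11 of the 26 fell. Summarised per array as the median over the list relative to the DMSO mean, the 0.1 nM arrays were at -0.46, -0.38 and -0.39 and the DMSO arrays at -0.07, 0.03 and 0.02. The list count depended on single arrays: it was 5 without DMSO replicate 2, 7 without DMSO replicate 3 and 11 without DMSO replicate 1. It was 7, 6 and 8 without 0.1 nM replicates 1, 2 and 3.

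FOS encodes the partner of JUN in the AP-1 transcription factor. Its intensity was 112, 81.8 and 83.3 on the 0.1 nM arrays, against 292, 334 and 380.4 on the DMSO arrays. All 3 treated arrays lay far under the lowest DMSO array, a log2 change of -1.70 ± 0.20 (limma, adjusted p 6.5e-05). EGR1, a zinc finger factor that ERK signals induce, read 192, 153 and 173 at 0.1 nM and 520.2, 644 and 609 in DMSO in the probe set of largest change. The groups were as far apart as for FOS, at -1.69 ± 0.26 (limma, adjusted p 0.0011). The other EGR1 probe sets were much brighter and moved less, by -0.45 ± 0.09 and by -0.20 ± 0.06. The last of these, the brightest, did not pass the test. EGR3, of the same family, read 20.5, 31.8 and 32.5 at 0.1 nM and 79.0, 99.1 and 122 in DMSO. Its treated arrays were all under the level minimum, so the log2 change of -1.38 ± 0.20 depends on the offset of 16 (limma, adjusted p 7.3e-04).

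JUN, the partner of FOS in AP-1, fell in more than one probe set. In the probe set of largest change it read 658, 614 and 699.8 at 0.1 nM, against 1051, 1107 and 1099.8 in DMSO, a change of -0.71 ± 0.09 (limma, adjusted p 1.2e-04). The arrays of each group lay close together and far from the other group. A brighter JUN probe set read 1223, 1149.8 and 1194 at 0.1 nM and 1742, 2117 and 1929 in DMSO, and had the smallest p of all tested probe sets (limma, adjusted p 5.2e-05). The remaining AP-1 genes gave smaller or unsettled values. FOSB changed by -0.56 ± 0.17, FOSL1 by -0.55 ± 0.19, JUNB by -0.28 ± 0.15, JUND by -0.01 ± 0.04 and FOSL2 by 0.01 ± 0.09, with none of these past the test. FOSB arrays at 0.1 nM ran from 45.1 to 51.0, under the DMSO range of 65.2 to 96.7, and FOSL1 arrays did not overlap either, whereas JUNB, JUND and FOSL2 arrays did.

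**Figure D2:**
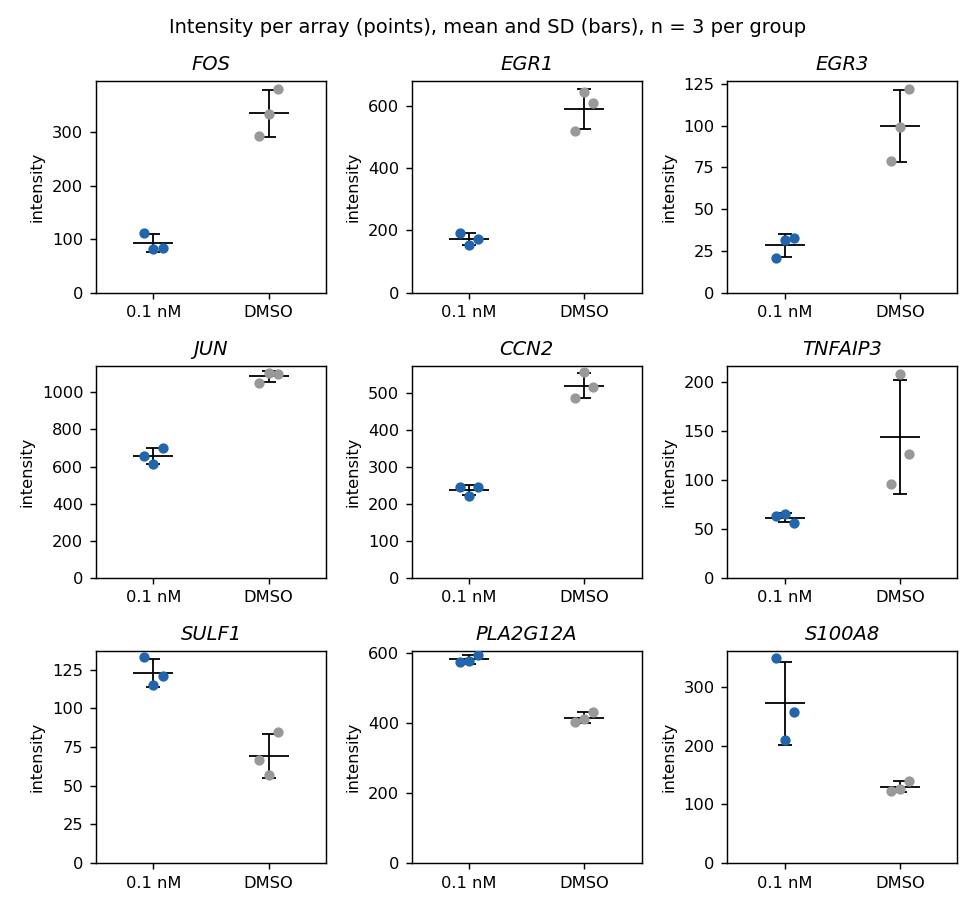
Intensity on each 0.1 nM array (left, blue) and DMSO array (right, grey) for 9 genes, with the group mean and SD as black bars (n = 3 each) and an axis that starts at 0. FOS, EGR1, EGR3, JUN, CCN2 and TNFAIP3 lie lower at 0.1 nM, and SULF1, PLA2G12A and S100A8 higher. No panel shows overlap, which was a condition for choosing these genes.

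CCN1 and CCN2, secreted matricellular proteins that respond to serum response factor and to YAP, fell together. CCN2 read 246, 221 and 244 at 0.1 nM and 486, 555 and 516 in DMSO, with a change of -1.08 ± 0.18 (limma, adjusted p 0.0023). CCN1 read 1109, 912 and 945 at 0.1 nM and 1788, 1809 and 1680.1 in DMSO in its first probe set (-0.83 ± 0.11; limma, adjusted p 5.3e-04). Its brighter probe set fell by 0.52 ± 0.10 on the log2 scale (limma, adjusted p 0.0079), a call that was lost without DMSO replicate 2 (0.056) or 0.1 nM replicate 2 (0.07). In the list of actin, SRF and YAP targets these were the only members that fell of 18 tested, and the list median was -0.08. CCN2 was also the only gene to fall among 19 TGF-beta and SMAD targets, where the median was -0.10. Of all genes 0.337% fell.

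The Krüppel-like factors KLF2 and KLF6, the mRNA decay factor ZFP36, the nuclear receptor NR4A3 and IER2 were the other members with a call. KLF6 was called by 3 of its 4 tested probe sets but not by the brightest (-0.43 ± 0.11). EGR1 was not called by its brightest either, so both are outside the 9 members called by the probe set of highest mean. KLF2 read 42.5, 29.3 and 54.8 at 0.1 nM and 67.6, 124 and 96.1 in DMSO, a change of -0.93 ± 0.15 (limma, adjusted p 0.0013). KLF6 read 156, 158 and 149.9 at 0.1 nM and 231, 282 and 255 in DMSO in the probe set of largest change (-0.67 ± 0.12; limma, adjusted p 0.0053), a call lost in that probe set without DMSO replicate 2 (0.077). A brighter KLF6 probe set averaged 1375 at 0.1 nM and 2060.2 in DMSO (-0.58 ± 0.08; limma, adjusted p 0.0010). Both genes were separated between the groups on every array. IER2 changed by -0.44 ± 0.08, NR4A3 by -0.49 ± 0.10 and ZFP36 by -0.51 ± 0.10 (limma, adjusted p 0.0071 to 0.0195). The NR4A3 arrays lay at 70.6 to 78.9 at 0.1 nM and at 109.6 to 114 in DMSO, both with little spread. Members with no call included MYC at -0.48 ± 0.25, KLF10 at -0.44 ± 0.14, IER3 at -0.37 ± 0.11, the phosphatase DUSP1 at -0.35 ± 0.12 and SRF itself at -0.21 ± 0.11.

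**Figure D3:**
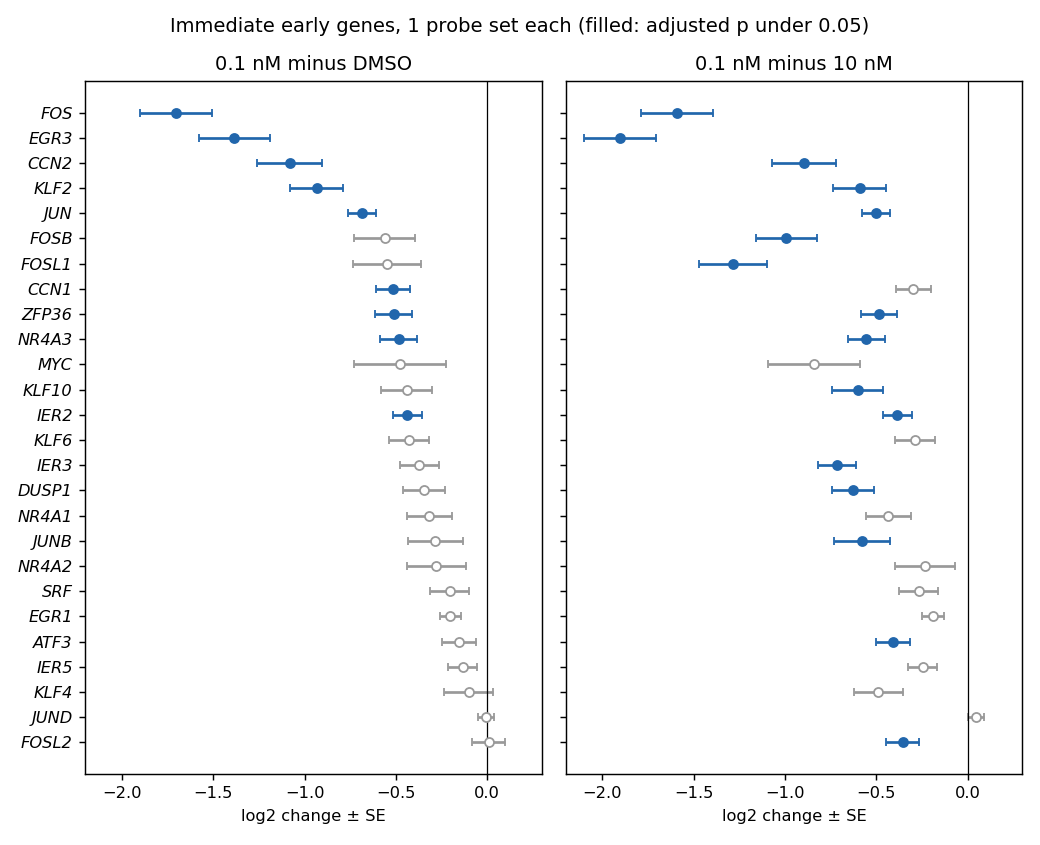
Log2 change ± SE of the 26 tested immediate early genes, each by its probe set of highest mean, at 0.1 nM against DMSO (left) and against 10 nM (right), ordered by the left panel. Filled blue points passed the test: 9 against DMSO and 16 against 10 nM, all of them lower at 0.1 nM.

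Feedback genes of the ERK pathway and EGF receptor ligands fell in 3 of 16 tested cases and rose in 0, with a median of -0.25. Over all 12174 genes 0.337% fell and 0.0904% rose. SPRY4, a Sprouty inhibitor of receptor tyrosine kinase signals, read 609, 539.9 and 525 at 0.1 nM and 826, 891 and 952 in DMSO (-0.66 ± 0.13; limma, adjusted p 0.0132). DUSP5, a nuclear ERK phosphatase, read 701, 708 and 810.5 at 0.1 nM and 1106, 1157 and 1190.4 in DMSO (-0.63 ± 0.15; limma, adjusted p 0.0403). SPRY1 changed by -0.50 ± 0.12 (limma, adjusted p 0.0483). The groups did not overlap for any of the 3 genes. Each lost its call without DMSO replicate 2 or 3 and without 0.1 nM replicate 2 or 3, with an adjusted p of 0.066 to 0.084 for SPRY4, 0.072 to 0.209 for DUSP5 and 0.109 to 0.337 for SPRY1. Without 0.1 nM replicate 1, DUSP5 (0.137) and SPRY1 (0.12) lost it as well. Quantile normalization, no level filter, no mean-variance trend and the 3′ to 5′ ratio as a covariate each ended the calls of DUSP5 (0.0515 to 0.068) and SPRY1 (0.0609 to 0.0689), and median centring that of SPRY1 (0.0647). DUSP6, the cytoplasmic ERK phosphatase, changed by -0.48 ± 0.13, DUSP4 by -0.36 ± 0.12, the ligand HBEGF by -0.30 ± 0.13 and EREG by -0.25 ± 0.12, none of them past the test. ETV5 and ERRFI1 were the members at or above 0, at 0.08 ± 0.07 and 0.00 ± 0.09. By another probe set EGFR, the receptor, fell: it read 515, 495 and 508 at 0.1 nM and 614, 648 and 620.2 in DMSO, a change of -0.30 ± 0.07 (limma, adjusted p 0.0382), while its brightest probe set gave -0.21 ± 0.07.

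Inflammatory cytokines and NF-kB targets fell in 2 of 18 tested genes and rose in 0, where 0.337% of all genes fell and 0.0904% rose. Their median was -0.32, with 17 members below 0. TNFAIP3, a ubiquitin-editing inhibitor of NF-kB, fell in both its tested probe sets. The brighter read 119.8, 124 and 113 at 0.1 nM and 189.5, 315 and 227 in DMSO (-0.92 ± 0.14; limma, adjusted p 0.0013). The dimmer read 63.1, 64.9 and 56.2 at 0.1 nM and 96.3, 209 and 126 in DMSO (-0.99 ± 0.20; limma, adjusted p 0.0184). In both, DMSO replicate 2 was the highest array, and without it the dimmer lost its call (0.231), as it did without any 1 of the 0.1 nM arrays (0.056 to 0.093). IL1A, the cytokine interleukin 1 alpha, read 260.2, 228 and 258 at 0.1 nM and 300.5, 367 and 389 in DMSO. Its change of -0.47 ± 0.11 (limma, adjusted p 0.0401) was lost without DMSO replicate 2 (0.264) or DMSO replicate 3 (0.165), and without 0.1 nM replicates 1, 2 or 3 (0.076, 0.175 and 0.095). It was also lost with the 3′ to 5′ covariate (0.0617) and with only the 0.1 nM and DMSO arrays in the fit (0.0669). Chemokines had sizeable changes with wide errors: CXCL8 gave -0.71 ± 0.22, CXCL3 -0.54 ± 0.16 and CXCL2 -0.49 ± 0.15, none past the test.

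Several genes outside these lists fell by similar amounts. MCL1, an anti-apoptotic BCL2 family member with a short-lived mRNA, read 809, 826 and 865 at 0.1 nM and 1193, 1420.3 and 1382 in DMSO in the probe set of largest change (-0.66 ± 0.10; limma, adjusted p 0.0011). All of its 5 tested probe sets were lower, with fitted ratios of 0.632 to 0.795, but only 3 were called. The brightest gave -0.35 ± 0.10 and did not pass (limma, adjusted p 0.112). RHOB, a small GTPase known as an early response gene, read 2028, 2068 and 2193 at 0.1 nM and 2972, 3607 and 3113 in DMSO (-0.62 ± 0.09), and a dim second probe set gave -0.09 ± 0.08. GBP1, a guanylate-binding protein, fell in 2 of 3 tested probe sets, by 0.63 ± 0.09 and 0.60 ± 0.10 on the log2 scale. Also lower, each in 1 probe set, were the endothelin gene EDN1 (-0.56 ± 0.11) and the YAP relative WWTR1, known as TAZ (-0.51 ± 0.10). The Hedgehog receptor PTCH1 (-0.49 ± 0.10) and the cell cycle kinase CDK6 (-0.34 ± 0.08) were lower in 1 probe set each too. The brightest probe set of WWTR1 gave 0.00 ± 0.08 and that of CDK6 -0.25 ± 0.06, and the other EDN1 probe sets gave -0.11 ± 0.11 and 0.02 ± 0.11, none past the test. SCD, the stearoyl-CoA desaturase, fell in 3 of its 4 tested probe sets, by 0.44 ± 0.11 to 0.58 ± 0.12 on the log2 scale, while the brightest changed by -0.17 ± 0.06 and did not pass. RHOB, GBP1, EDN1, WWTR1, PTCH1, CDK6 and SCD were chosen after their values were seen.

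Some of the largest falls belonged to the dimmer probe sets of a gene. ZFAND6, an AN1-type zinc finger gene, read 53.6, 75.4 and 41.5 at 0.1 nM and 128, 169.6 and 119 in DMSO (-1.10 ± 0.22; limma, adjusted p 0.0184). Its other probe set, at 5252 in 0.1 nM cells and 5091 in DMSO cells, changed by 0.04 ± 0.05. SLC20A1, a sodium-dependent phosphate transporter, read 177, 234 and 176 at 0.1 nM and 350.3, 471 and 381 in DMSO (-0.98 ± 0.17; limma, adjusted p 0.0047), while its brighter probe set changed by 0.04 ± 0.05. The probe sets of ZFAND6 and SLC20A1 thus went separate ways. ARHGEF40 and RASAL2, an exchange factor and a GTPase activator, fell by 0.70 ± 0.16 and 0.66 ± 0.13 on the log2 scale in probe sets whose 0.1 nM arrays lay mostly under the level minimum. ARHGEF40 had 1 called probe set of 6, and RASAL2 had 2 of 4, with all 4 below 0 and the brightest at -0.18 ± 0.08. Of the 15 lower genes of largest change, each read by its probe set of largest change, 7 kept their call under every alternative tried, namely FOS, EGR1, EGR3, CCN2, CCN1, JUN and MCL1. Without DMSO replicate 2, 7 of the 15 lost it (adjusted p 0.0754 to 0.231): ZFAND6, TNFAIP3, SLC20A1, ARHGEF40, KLF6, SPRY4 and RASAL2. The brighter TNFAIP3 probe set kept its call under every alternative tried. Without 0.1 nM replicates 1, 2 and 3 the number lost was 4, 3 and 4, without DMSO replicate 3 it was 2 and without DMSO replicate 1 it was 0. With only the 0.1 nM and DMSO arrays in the fit, KLF2, TNFAIP3, ARHGEF40 and RASAL2 lost it (0.0604 to 0.0867).

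Among the 103 genes with a call, 81 had several tested probe sets, and in 49 of these all ran one way. In 12 genes several probe sets were called, and 0 genes were called in both directions. Called probe sets without a symbol made up 20.2% of the calls, against 11.1% of all tested probe sets. Counted per probe set with 1 symbol, the genes of those that fell had a median span of 30.6 kb on the genome. It was 20.1 kb for those that rose and 35.8 kb over all tested.

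Fewer genes rose, and by less. SULF1, an extracellular heparan sulfate endosulfatase, read 133, 115 and 121 at 0.1 nM and 66.8, 56.7 and 84.7 in DMSO (0.72 ± 0.11; limma, adjusted p 0.0013). PLA2G12A, a secreted phospholipase A2, read 574, 576 and 595 at 0.1 nM and 402, 409.9 and 432 in DMSO (0.47 ± 0.07; limma, adjusted p 0.0010). The groups were well apart for both, although the other 3 tested probe sets of PLA2G12A gave 0.13 to 0.15 and did not pass. S100A8, a calcium-binding protein of squamous epithelium and myeloid cells, had the largest rise. It read 350.4, 209 and 258 at 0.1 nM and 123, 127 and 140.9 in DMSO (0.95 ± 0.23; limma, adjusted p 0.0481). Its second probe set read 266.8, 159.7 and 229 at 0.1 nM and 88.6, 101 and 126 in DMSO and did not pass (0.93 ± 0.25; limma, adjusted p 0.082), and S100A9, its usual partner, changed by 0.15 ± 0.13. The leukocyte markers beside it were 12 of 16 under the level minimum. Their summed intensity ran from 707 to 775 at 0.1 nM and from 739.9 to 788 in DMSO.

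Each of the other named rises rested on a single called probe set. Another probe set was below 0 for ACOT11 (-0.13), DCAF16 (-0.12), DIDO1 (-0.08), RAB27A (-0.05), EIF2S1 (-0.02) and AGFG1 (-0.01). H2BC12 and DDX60 had only 1 tested probe set, and the rest had all of theirs above 0. ACOT11, an acyl-CoA thioesterase, read 57.0, 86.3 and 88.2 at 0.1 nM and 56.7, 33.2 and 31.5 in DMSO (0.73 ± 0.17; limma, adjusted p 0.0478), so that one array of each group lay close to the other group. H2BC12, a histone H2B gene, read 704, 694 and 723 at 0.1 nM and 537, 509 and 528 in DMSO (0.42 ± 0.09; limma, adjusted p 0.0195). It was the only riser of 8 histone genes tested, where 0.0904% of all genes rose. PPP1R10, a nuclear regulator of protein phosphatase 1, changed by 0.41 ± 0.09 and DDX60, an RNA helicase of the antiviral response, by 0.38 ± 0.09. The translation initiation factors EIF1AX and EIF2S1 changed by 0.28 ± 0.05 and 0.23 ± 0.05. DIDO1 (0.42 ± 0.08), RBIS (0.40 ± 0.09), RAB27A (0.34 ± 0.08), AGFG1 (0.33 ± 0.07), DCAF16 (0.26 ± 0.06) and LYRM2 (0.26 ± 0.06) were the rest of the 15 largest. Of these 15, SULF1 and PLA2G12A kept their call under every alternative tried, and the other 13 lost it without DMSO replicate 2 (adjusted p 0.0917 to 0.374) and without 0.1 nM replicate 2 (0.0525 to 0.222). Without 0.1 nM replicate 1 the number lost was 10, without 0.1 nM replicate 3 it was 12, without DMSO replicate 3 it was 8 and without DMSO replicate 1 it was 5. With no mean-variance trend it was 7, and with the 3′ to 5′ covariate 6.

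The p53 target genes, through which cells answer DNA damage, had 0 rising and 0 falling members of 28 tested and a median of 0.05. CDKN1A, the cell cycle inhibitor p21, read 4499, 4625 and 4751 at 0.1 nM and 4588, 4479.5 and 4920.1 in DMSO, with the groups interleaved (-0.01 ± 0.05). MDM2, the ubiquitin ligase of p53, changed by 0.02 ± 0.05 and GDF15, a stress cytokine, by 0.04 ± 0.07. The members with the smallest p were ZMAT3, an RNA-binding p53 target, at 0.29 ± 0.07, and PLK2, a polo-like kinase, at -0.48 ± 0.13, and neither passed. DNA repair lists were as quiet: the medians were 0.02 for 23 nucleotide excision repair genes, 0.01 for 24 translesion and checkpoint genes, -0.02 for 19 Fanconi and recombination genes and 0.02 for 20 base excision and mismatch repair genes, with 0 calls in each by the probe set of highest mean. FANCB of the Fanconi list fell in 3 dimmer probe sets, by 0.50 ± 0.11 to 0.59 ± 0.14 on the log2 scale, but gave 0.11 ± 0.13 in its brightest. RAD18, the ubiquitin ligase that starts translesion synthesis, came closest at 0.29 ± 0.08. Replication genes (34 tested) and mitotic genes (35 tested) also had 0 calls, with medians of 0.00 and -0.01.

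Genes of xenobiotic and oxidant responses gave no call either. Aryl hydrocarbon receptor targets had a median of -0.03 over 7 genes, and CYP1B1, a cytochrome P450, changed by 0.17 ± 0.11. CYP1A1 lay under the level minimum on average, at 24.6 ± 9.58 in 0.1 nM cells and 28.0 ± 6.68 in DMSO cells (SD, n = 3 each), and was not tested. NRF2 antioxidant genes had a median of -0.06 over 22 genes. NQO1, a quinone reductase, read 2660.3, 2458 and 2716 at 0.1 nM and 2833, 2925 and 3063 in DMSO, without overlap but not past the test (-0.17 ± 0.04; limma, adjusted p 0.0725). HMOX1, heme oxygenase, changed by -0.19 ± 0.14, and its arrays overlapped between the groups.

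In the stress lists single members fell, where 0.337% of all genes fell and 0.0904% rose. HERPUD1, an ER-associated degradation protein, read 2560.0, 2386 and 2445 at 0.1 nM and 2881, 3216 and 3146 in DMSO (-0.32 ± 0.05; limma, adjusted p 0.0019). It was the only member called of 29 unfolded protein and integrated stress response genes. DNAJA1, an HSP40 co-chaperone, read 2548, 2402 and 2435 at 0.1 nM and 2903, 3231 and 3013 in DMSO (-0.31 ± 0.05; limma, adjusted p 0.0047), the only call of 14 heat shock genes (median -0.11), lost without DMSO replicate 2 (0.080). TXNIP and glucose-sensing genes had a median of -0.14 over 9 members and 0 calls. The sterol gene SQLE changed by -0.30 ± 0.07 and the interferon gene OASL by 0.53 ± 0.13, neither past the test. The remaining lists, among them respiratory chain, ribosomal protein, proteasome, splicing, keratin, Notch and Wnt genes, had 0 calls by the probe set of highest mean and medians within 0.1 of 0, apart from airway markers at 0.18 over 5. Counting any tested probe set, 1 gene fell in each of the splicing, Notch, apoptosis and interferon lists. Among 5 squamous differentiation genes S100A8 was the only one called, and their median was 0.15.

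**Figure D4:**
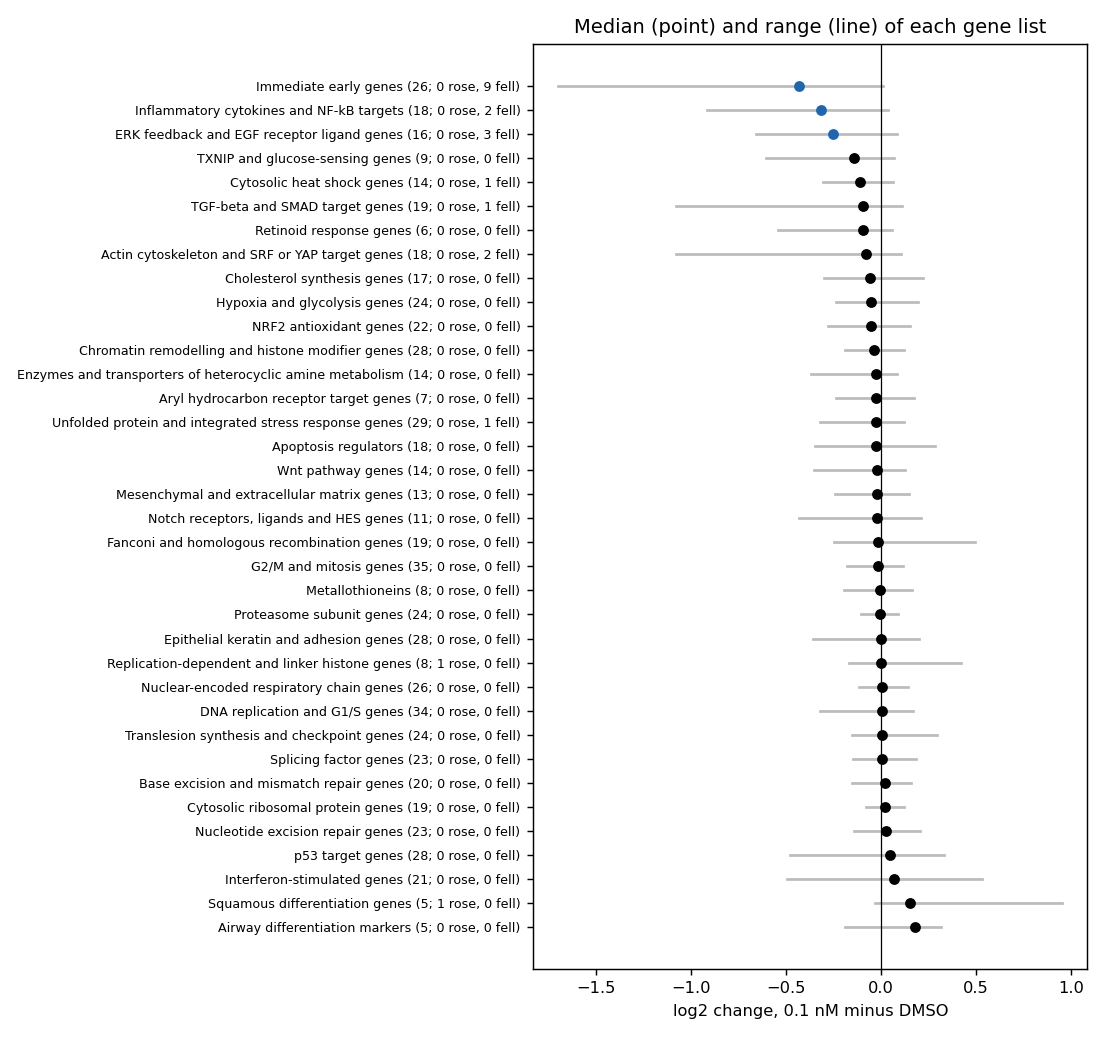
Median (point) and range (line) of the log2 change at 0.1 nM against DMSO in the 36 gene lists with 5 or more tested genes, each by its probe set of highest mean, with the number tested, risen and fallen. Blue points mark the 3 lists with a median under -0.2: immediate early genes (-0.43), inflammatory genes (-0.32) and ERK feedback genes (-0.25).

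Summed markers of differentiated airway cells ran from 2672 to 2938 at 0.1 nM and from 2591 to 2656 in DMSO, with 11 of 16 under the level minimum. Endothelial markers summed to between 570.0 and 603 at 0.1 nM and to between 623 and 651 in DMSO, with 9 of 12 under it and PECAM1 at 24.7 and 25.9. Fibroblast markers summed to between 868 and 972 at 0.1 nM and to between 814 and 875 in DMSO, mostly from COL1A1. The airway and endothelial sums thus did not overlap, but few genes weighed on them. Of the 3 tested endothelial genes, FLT1 was lower at 0.1 nM (114.6, against 175.4 in DMSO). ENG (228.5 and 225.8) and EGFL7 (93.25 and 81.49) were not lower. Of the 5 tested airway genes 4 were above 0 in log2 change, with AGR2 at 1879 and 1655. SFTPC was lower, at 471.9 and 541.9. The part of these sums in the results was not tested. As a gauge of RNA quality, the 3′ over 5′ signal of the actin and GAPDH controls was taken on the log2 scale. It averaged 1.22 ± 0.05 at 0.1 nM and 1.17 ± 0.04 in DMSO (SD, n = 3 each; exact permutation test, two-sided, p = 0.3, where the smallest possible is 0.1).

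With all 10 groups in the fit, few or no probe sets separated 0.1 nM from 0.5 and 1 nM, and more separated it from 10 nM. Against 0.5 nM 0 of 27307 probe sets were called in limma (0%), with 1523 at an unadjusted p under 0.05 and a smallest adjusted p of 0.578. Only 2 arrays represent 0.5 nM. FOS read 172 ± 44.1 at 0.5 nM, between the 92.4 ± 17.1 of 0.1 nM and the 336 ± 44.0 of DMSO (SD), and its change at 0.1 nM against 0.5 nM was -0.79 ± 0.22, not past the test (limma, adjusted p 0.627). Against 1 nM 5 probe sets were called (0.0183%), 1 higher (0.00366%) and 4 lower (0.0146%). CFL1, the actin-severing protein cofilin, averaged 1114 ± 41.2 at 0.1 nM and 865 ± 45.7 at 1 nM (0.36 ± 0.06; limma, adjusted p 0.0355). CD47, the anti-phagocytic receptor, averaged 60.2 ± 2.04 at 0.1 nM and 106 ± 3.33 at 1 nM (-0.68 ± 0.12; limma, adjusted p 0.0444). INTS6, an Integrator complex subunit, and RDH13, a retinol dehydrogenase, were also lower, by 0.55 ± 0.09 and 0.57 ± 0.10 on the log2 scale. SLC12A8, a transporter gene named after its value was seen, was lower by 0.48 ± 0.08. Each of these 5 genes had 1 probe set called against 1 nM, of 6 tested for CD47 and 4 for INTS6. The call counts against 1 nM were 1 without 1 nM replicate 2 or 0.1 nM replicate 1, and 0 without any other single array of those 2 groups. It was 0 with the 3′ to 5′ covariate or the replicate block, but 236 with only those 2 groups in the fit. Immediate early genes had 0 calls in either comparison, with a median of -0.26 against 0.5 nM and 0.01 against 1 nM.

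Against 10 nM, immediate early, ERK feedback and inflammatory genes were lower at 0.1 nM. In all 611 probe sets were called (2.24%), 482 lower (1.77%) and 129 higher (0.472%). EGR3 averaged 28.2 ± 6.73 at 0.1 nM and 149 ± 22.1 at 10 nM, a log2 change of -1.90 ± 0.20 (limma, adjusted p 1.1e-05). EGR1 averaged 173 ± 19.3 at 0.1 nM and 587 ± 10.8 at 10 nM, and FOS 92.4 ± 17.1 and 309 ± 20.8, changes of -1.68 ± 0.26 and -1.59 ± 0.20. Of the 26 immediate early genes 16 were lower and 0 higher, with a median of -0.49, where 2.02% of all genes were lower and 0.427% higher. Of 16 ERK feedback and ligand genes 8 were lower, with SPRY4 at -1.01 ± 0.13, and of 18 inflammatory genes 13, with IL1A at -0.86 ± 0.11 and CCL20 at -1.17 ± 0.29. FOSL1, which did not pass against DMSO, changed by -1.29 ± 0.19 here. The largest rises at 0.1 nM against 10 nM were noncoding RNA genes with a wide spread, HCG18 at 220.1 ± 85.8 and 77.8 ± 27.5, LINC00342 at 188 ± 94.5 and 63.6 ± 13.8, and PGM5-AS1 at 135 ± 42.2 and 49.0 ± 16.5. The count was 39 without 10 nM replicate 2, 51 without 0.1 nM replicate 2 and 240 without 0.1 nM replicate 3. It was 359 and 350 without 10 nM replicates 1 and 3, 690 without 0.1 nM replicate 1, and 1128 with 5 nM replicate 3 and 500 nM replicate 3 out of the fit. The comparison with 10 nM and that with DMSO share the arrays at 0.1 nM, so their values stand side by side only.

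Over the whole dose series the levels of these genes did not run steadily with dose. FOS averaged 336 in DMSO, against 92.4 (0.1 nM), 172 (0.5 nM), 97.9 (1 nM) and 92.8 (5 nM). Higher doses gave 309 (10 nM), 237 (50 nM), 225 (100 nM), 265 (500 nM) and 444 (1000 nM). EGR1 followed with 591 in DMSO, 173, 284, 160 and 148 at 0.1, 0.5, 1 and 5 nM, and 587 at 10 nM. In CCN2 the 0.1 nM mean of 237 ± 14.1 was close to the 225 ± 12.3 of 1 nM, and DMSO cells had 519 ± 34.3 (SD, n = 3 each). JUN stood at 1086 in DMSO, at 657, 726, 689 and 612 from 0.1 to 5 nM, and at 929.9 at 10 nM. It was lower again at 50 nM (810) and 100 nM (714), and stood at 959 at 500 nM and 1315 at 1000 nM. SULF1 averaged 69.4 in DMSO and 123, 104 and 99.0 at 0.1, 0.5 and 1 nM. It then stood at 78.5 at 10 nM and 14.4 at 1000 nM. PLA2G12A was above its DMSO mean of 415 at 0.1 nM (582), 0.5 nM (593), 1 nM (608) and 5 nM (549). It was also above it at 10, 50 and 100 nM (517, 506 and 508), and below it at 500 nM (355) and 1000 nM (324).

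**Figure D5:**
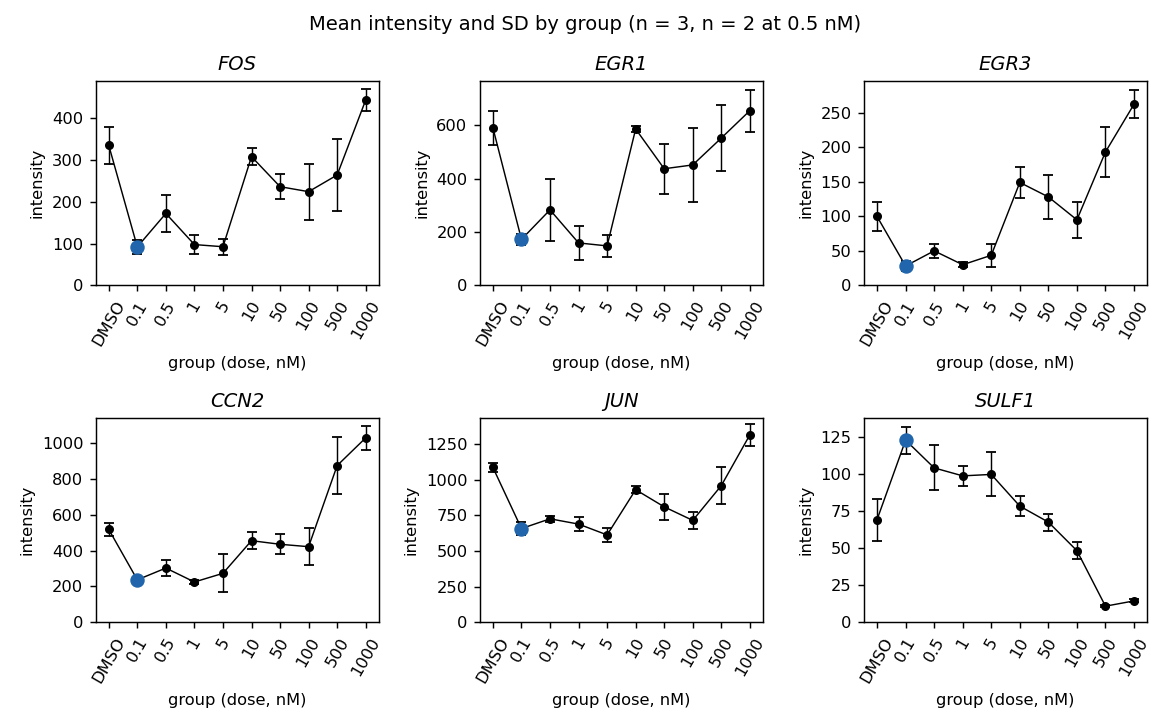
Mean intensity ± SD of 6 genes in DMSO and at each dose in nM (n = 3, and n = 2 at 0.5 nM), on a linear axis from 0 with groups evenly spaced and 0.1 nM in blue. FOS, EGR1, EGR3 and CCN2 are low from 0.1 to 5 nM and higher in DMSO and from 10 nM, JUN does likewise except at 100 nM (714), which lies within its range from 0.1 to 5 nM, and SULF1 is high from 0.1 to 5 nM.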

How the data were processed

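RNA of 29 BEAS-2B cultures was amplified with NuGEN Ovation and hybridised to an Affymetrix 3′ array, per the labels' protocols. The authors deposited an intensity for each probe set on a linear scale, from GCOS per the submitters' processing notes, normalized by the authors with a method not given in the sources used here. Array means trimmed at both ends differed by 3.21%, so no further normalization was applied. Of 54675 probe sets 62 were controls and were left out. Gene symbols are those of the annotation table of the array: 41091 probe sets had 1, 1801 several and 11721 none, and 41037 were matched to RefSeq by gene identifier.

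The analysis used log2(intensity + 16). Probe sets with a mean at or above the median of 5.74 (intensity 37.4) were fitted with limma 3.58.1 in R 4.3.3, 1 mean per group (10 groups) over all 29 arrays, a mean-variance trend and 19 residual degrees of freedom. Tests were two-sided and adjusted with Benjamini-Hochberg over 27307 probe sets at 0.05. The code was tested on simulated data.

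The members and the 39 gene lists (847 symbols) were chosen with earlier results of these data known. Genes named are the 15 called higher and 15 called lower of largest change with 1 symbol and no overlap between groups, 3 and 3 for other comparisons, up to 4 called members of each list or else the 2 of smallest p, and always CDKN1A, CYP1A1, CYP1B1, GDF15, HMOX1, MDM2 and NQO1. Other members and other probe sets of a named gene are given as values. A fold change is on the offset scale and understates changes of dim probe sets. Detection calls were not used here.

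Same-numbered arrays of 0.1 nM and DMSO deviated from their group means with correlations of -0.516, -0.23 and -0.0397, so no pairing by number was seen between these groups. Over all groups, 37 of 126 same-numbered pairs correlated over 0.1, in a range of -0.516 to 0.746. The main fit used no pairing. Nothing in the labels beyond triplicate cultures says how replicates were made, so p-values measure the spread between these arrays. Alternatives were the offset, normalization, level filter, variance trend, replicate block, a 3′ to 5′ ratio covariate, only the groups compared, a minimum fold and leaving out each array. Leaving out 5 nM replicate 3 with 500 nM replicate 3, and recounting the immediate early list under each alternative, were chosen after seeing the data. Promoter windows came from RefSeq tables on GRCh38.p14. Figures were drawn with matplotlib 3.10.9.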

Additional observations from a re-analysis of the deposited data

How the results depend on the processing

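Against DMSO, 163 probe sets were called. A minimum of 1.5-fold left 51 (4 higher, 47 lower), and the upper 25% of mean level 84 (64 lower). Higher calls were 46 with median centring, 73 with no level filter and 16 with no mean-variance trend. Without 5 nM replicate 3 and 500 nM replicate 3 there were 475 calls (102 higher, 373 lower). Leaving out each array of the groups in turn gave 29 to 717 calls, 2 to 340 higher and 27 to 377 lower. The 9 immediate early genes that fell became 4 in the upper 25% of level, 14 with only the 2 groups in the fit, and 5 to 11 with each array left out. Replicate numbers did not pair the 0.1 nM and DMSO arrays, while over all groups 37 of 126 same-numbered pairs correlated over 0.1. With the replicate block there were 160 calls, against 1 nM 0 and against 10 nM 551.

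Against 1 nM the 5 calls became 1 at 1.5-fold, 3 in the upper 25%, 0 with the 3′ to 5′ covariate, 236 with only the 2 groups, 9 without the 2 arrays that stand apart, and 0 to 1 with each array left out. Against 10 nM the 611 calls became 163 at 1.5-fold, 390 in the upper 25%, 1108 with only the 2 groups, 1128 without the 2 arrays that stand apart, and 39 to 690 with each array left out. Against 0.5 nM the count was 0 under every alternative. Fewer probe sets were tested in the upper 25%, and the other causes were not tested.

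Of 37 called named probe sets, 11 kept the call under every alternative tried and 0 changed direction. Uncalled genes near 0 changed sign: with median centring CDKN1A became 0.0146 and S100A4 0.0044, and with quantile normalization S100A4 became 0.0396. With each array left out CDKN1A ran from -0.039 to 0.0284, MDM2 from -0.0382 to 0.0643 and S100A4 from -0.221 to 0.131. The intensity of dim probe sets limits what can be read: changes from or to levels under 37.4 depend on the offset.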

Other observations

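Some called genes, chosen after their values were seen, fell in 1 probe set while a brighter probe set of the gene did not move. The nuclear pore protein TPR read 243, 214 and 225 at 0.1 nM and 336, 336 and 316 in DMSO in 1 probe set (-0.50 ± 0.09; limma, adjusted p 0.0062), but changed by 0.05 ± 0.04 in its brightest. SUPT16H, a subunit of the histone chaperone FACT, changed by -0.50 ± 0.10 in one probe set (limma, adjusted p 0.0132) and by 0.06 ± 0.04 in the brighter. INTS6, the Integrator subunit lower at 0.1 nM than at 1 nM, was also lower than in DMSO. Its brightest probe set read 362, 390.0 and 375 at 0.1 nM and 565, 539 and 592 in DMSO (-0.57 ± 0.09; limma, adjusted p 0.0023), and its other 3 tested probe sets gave -0.14 to -0.20 and did not pass. In the called probe sets of these genes the arrays at 0.1 nM lay under every DMSO array.

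CIRBP, the cold-inducible RNA-binding protein, rose a little in its 2 brightest probe sets of 5 tested. One read 5509, 5636 and 5316 at 0.1 nM and 4773, 4667 and 4814 in DMSO (0.21 ± 0.04; limma, adjusted p 0.0179), and the other changed by 0.16 ± 0.04 (limma, adjusted p 0.0435). The remaining probe sets gave 0.18 to 0.38 and did not pass. YY1, a zinc finger transcription factor, rose by 0.21 ± 0.05 on the log2 scale in 1 of its 6 tested probe sets, while its brightest gave -0.05 ± 0.04. CIRBP and YY1 were likewise chosen after their values were seen.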
